A study of Bubalus bubalis with 8 samples.

Results

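The genes described here are 10 genes of the endoplasmic reticulum (ER) chaperone system and the unfolded protein response, namely HSPA5, HSP90B1, HYOU1, CALR, CANX, PDIA3, PDIA4, PDIA6, XBP1 and ATF4. They are 10 of the 24839 gene names on the array, and they were chosen by name, through 34 of its 43653 probes outside the control spots. All 10 symbols are also in the current RefSeq annotation of the buffalo. RNA came from primary mammary epithelial cells (MECs) of an adult buffalo, and it was hybridised with 1 colour (Cy3) to 8 arrays designed for bovine transcripts. Unstressed cells kept at 37 °C (CTR) filled 1 array. The other 7 arrays held cells heated to 42 °C for 1 h, returned to 37 °C and harvested after 30 min or after 2, 4, 8, 12, 16 or 24 h. The labels and methods give all groups passage 10, collagen-treated plates and a source in 1 animal. Which harvest time the CTR array stands for is not given in the sources used here. Each condition had 1 array, so there is no replicate check, no test was made and no p-value is given. All 7 comparisons share the same CTR array.

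The ER is where secreted and membrane proteins are folded, and mammary epithelium is a secretory tissue that makes large amounts of protein for milk. HSPA5 (BiP) is the Hsp70 chaperone of this compartment and also holds the stress sensors of the ER inactive. When unfolded protein draws HSPA5 away, the sensors IRE1, PERK and ATF6 are released. IRE1 then splices the XBP1 transcript, PERK favours translation of ATF4, and ATF6 is cut to a transcription factor. Together they raise chaperones, folding enzymes and the machinery that sends misfolded protein to degradation. The array gives transcript amounts, so neither splicing nor translation was measured.

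The probes printed here are those that let separate stretches of a transcript be compared. HSPA5 had 4 probes, which lay in different parts of chromosome 11 on the bovine build HGSC Btau_3.1 given in the file headers. They read the minus strand at chr11:99543141-99543200, chr11:99543579-99543638, chr11:99544070-99544547 and chr11:99546701-99546760, and none overlapped another. A_73_P210427 is a 60-base probe placed over 478 bases of genome, so its alignment has a gap. The files give the position of a probe but not its exon. The following 3 HSPA5 probes each have at least 1 forward reading frame without a stop codon, and they are shown in lower case throughout.
A_73_P038581: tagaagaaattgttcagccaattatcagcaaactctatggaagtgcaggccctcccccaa
A_73_P210427: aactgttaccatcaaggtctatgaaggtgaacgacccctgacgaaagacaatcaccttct
A_73_P400026: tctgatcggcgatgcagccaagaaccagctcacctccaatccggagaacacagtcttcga

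PDIA6 shows the opposite case, a pair of probes that read overlapping stretches of the plus strand, at chr11:89617936-89617995 and chr11:89617962-89618021. Capitals mark the 34 bases that both hold, and the readings of this pair therefore count as 1 part of the transcript.
A_73_P329651: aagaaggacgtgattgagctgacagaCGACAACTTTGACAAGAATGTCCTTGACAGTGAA
A_73_P106326: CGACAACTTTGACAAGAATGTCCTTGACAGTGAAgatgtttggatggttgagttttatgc
CALR had a pair that shared 49 bases (A_73_106913 and A_73_P285466), and XBP1 a pair that shared 32 bases (A_73_P324771 and A_73_109266). The file places the first XBP1 probe of that pair on an unassigned scaffold and the second on chromosome 17.

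A level is given as the log2 intensity of a probe minus the 75th percentile of its array, and a change is the level minus that on CTR. Levels of different probes are not compared. The error of a change comes from repeated spots of the same probe, and in order of time it was 0.30, 0.37, 0.35, 0.39, 0.35, 0.86 and 0.39 (log2). Apart from 30 min, where no error was measured, the 16 h array was the least precise. The error rests on 16 to 25 probes with several spots per array, outside dark positions. With dark positions kept, the spot SD of CTR was 0.75 in place of 0.21. The error covers the measurement on the array and not the spread between cultures. A gene is given by its brightest probe outside regions where an array was dark. A probe that did not reach the "well above background" mark on 1 of the arrays has only a bound, written as "at least". The scanner output of the 30 min array had lost its signal over much of the array, so the 30 min values are from the value table the authors deposited for the series. The error there is that of CTR used for both arrays, so the precision at 30 min is not known. At 30 min a probe counted as well above background where its level reached 0.24, the highest such limit of the other arrays.

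Arrays of the series did not all stand alike. CTR, 8 h, 12 h and 24 h were on slide 1, and 30 min, 2 h, 4 h and 16 h on slide 2, so for the times on slide 2 the slide and the heat cannot be told apart. Of 5 milk protein genes detected somewhere on the arrays, 1 was well above background on each slide 1 array, and all 5 were on each slide 2 array. Their summed level, in units of the 75th percentile signal, was between 4.51 and 5.99 on slide 1. On slide 2 it was 36.7 (30 min), 28.5 (2 h), 538 (4 h) and 1324 (16 h). Of 7 leukocyte genes, 1 or 2 were detected on each slide 1 array and between 3 and 6 on each slide 2 array, where CD3E was well above background at 2 h alone, too dim for a fold, and ITGAM on no array. Their summed level was between 4.16 and 6.36 on slide 1. On slide 2 it was 88.9 (30 min), 59.2 (2 h), 12.6 (4 h) and 19.1 (16 h). The summed level of 8 epithelial genes was 618 on CTR, between 451 and 513 on the other slide 1 arrays, 199 and 204 on the first 2 arrays after heat, 288 at 4 h and 455 at 16 h. On every array 7 or 8 of these epithelial genes were detected. The summed level of 6 fibroblast genes was 185 on CTR, between 125 and 170 on the other slide 1 arrays and between 52.3 and 119 on slide 2. Of these, 3 were detected on each slide 1 array, and 1, 3, 4 and 5 on slide 2 in order of time. At 16 h, 2 were at least 2-fold above CTR and 2 at least 2-fold below, beside 15.2% and 10.9% of all genes. The summed level of 3 endothelial genes, none of them detected on slide 1, was at most 0.71 there, and on slide 2 it was 3.87 (30 min), 2.14 (2 h), 0.55 (4 h) and 2.63 (16 h). Whether the RNA on both slides came from the same culture is not given in the sources used here. In RNA from a whole culture, fewer cells of a type and less RNA per cell cannot be told apart. The part of these markers in the results on slide 2 was not tested.

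HSPA5 had the widest range of the 10 genes over the 8 arrays. Its brightest probe had a level of 5.36 on CTR, and 6.90, 6.27, 6.67, 7.26, 5.81, 5.35 and 3.97 in order from 30 min to 24 h. The highest array was therefore 8 h and the lowest 24 h, and both were on the slide of CTR. HSPA5 was 3.72-fold above CTR at 8 h, a change of 1.90 ± 0.39 (log2, spot error), and 2.62-fold below CTR at 24 h, a change of -1.39 ± 0.39. From 8 h to 24 h its level differed by 3.29 ± 0.46 (log2), or 9.76-fold, within slide 1. At 16 h it stood at the CTR level, with a change of -0.01 ± 0.86.

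The other HSPA5 probes followed the same course. At 8 h all 4 were above CTR, with changes between 1.13 and 1.90 and a mean of 1.52 ± 0.35 (SD over 4 probes). At 24 h the pair of probes bright enough to be measured had changes of -1.48 and -1.39, and the other 2 were not well above background and were at least 1.59 and 0.97 (log2) below CTR. At 12 h the 4 changes were between 0.14 and 0.45, and at 16 h between -0.45 and -0.01. The SD over the 4 probes was largest at 4 h (0.67), where A_73_P038581 had a change of -0.11 and the other 3 had changes between 0.87 and 1.31. At 2 h the SD was 0.64 and the range was wider, with changes from 0.06 to 1.62. At 30 min all 4 were above CTR, by 0.56 to 1.54, on the array with the highest leukocyte sum.

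**Figure D1:**
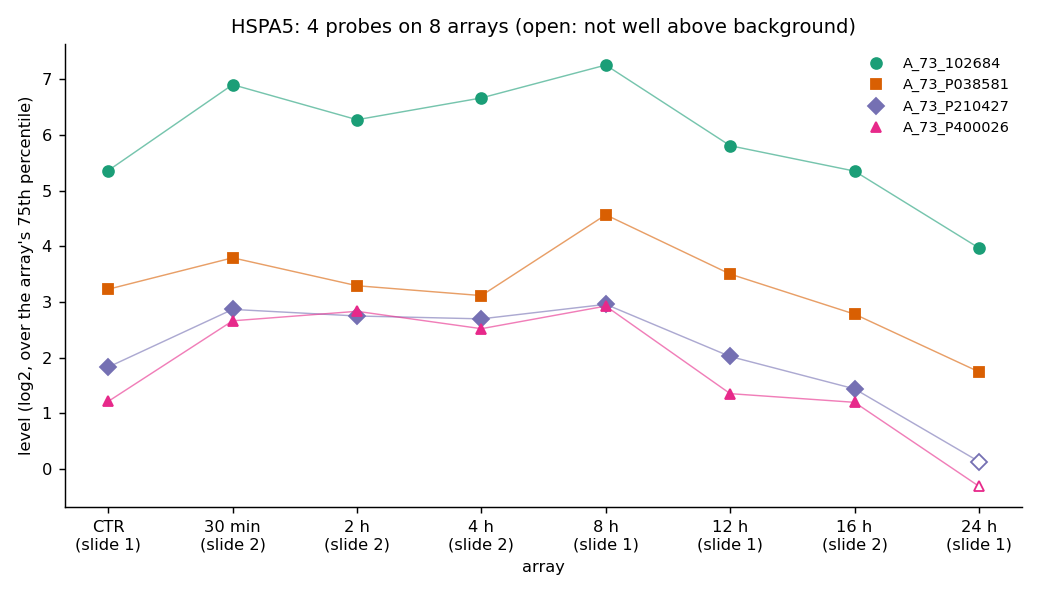
Level of the 4 HSPA5 probes (vertical axis, log2 over the 75th percentile of the array) on the 8 arrays in order of time, with open symbols where a probe was not well above background. All 4 probes have their highest level at 8 h and their lowest at 24 h.

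HSP90B1 (GRP94), the Hsp90 chaperone of the ER, had a single probe at chr5:72643879-72643938. Its level was 5.58 on CTR, and 5.96, 5.62, 5.93, 6.29, 5.36, 5.04 and 4.11 in order from 30 min to 24 h. Like HSPA5 it was highest at 8 h and lowest at 24 h. The change was 0.71 ± 0.39 (log2) at 8 h and -1.47 ± 0.39 at 24 h, the latter the lowest of the 10 genes at that time and 2.77-fold below CTR. Between 8 h and 24 h the level differed by 2.17 ± 0.46.

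HYOU1 (GRP170) exchanges the nucleotide of HSPA5 and is a large chaperone in its own right. The level of its brightest probe was 3.12 on CTR, and 4.01, 3.69, 3.65, 3.65, 2.69, 3.26 and 1.92 in order from 30 min to 24 h. It was above CTR from 30 min to 8 h, by 0.53 to 0.89 (log2), and 2.29-fold below at 24 h. A second HYOU1 probe, A_73_P145546, went another way, with a change of -2.87 at 2 h and of -0.84 and -0.20 at 8 h and 24 h, and at least 0.72, 2.74 and 1.30 below CTR at 30 min, 4 h and 16 h. The mean of both probes was -0.15 ± 0.97 (SD over 2 probes) at 8 h. The direction from 30 min to 8 h and at 16 h therefore depended on the probe. The third HYOU1 probe was not well above background on any array.

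Calreticulin (CALR) and calnexin (CANX) are lectin chaperones that hold newly made glycoproteins until they are folded. CALR moved little until 12 h. The level of its brightest probe was 7.42 on CTR, and 7.38, 7.27, 7.47, 7.58, 7.07, 7.20 and 6.49 in order from 30 min to 24 h. At 8 h its 6 probes were spread around CTR, with 4 above and 2 below and a mean change of 0.13 ± 0.40 (SD over 6 probes). At 24 h all 6 were below CTR, by 0.73 to 1.47 (log2), with a mean of -1.09 ± 0.30. The probe A_73_P329471 stood apart from the rest earlier on, with changes of 1.13, 1.36 and 1.74 on the first 3 arrays after heat, where the other 5 were between -0.58 and 0.56.

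CANX had 7 probes, which the file assigns to no chromosome. The brightest probe in an intact region had a level of 3.75 on CTR, and 3.92, 3.89, 4.07, 4.15, 3.20, 3.47 and 2.88 in order from 30 min to 24 h. It was highest at 8 h, by 0.40 ± 0.39 (log2), and lowest at 24 h, by -0.88 ± 0.39. A further 4 probes had at most 1.68 on CTR. The brightest of them had measured changes between -1.31 and 0.31, and at 24 h it was at least 1.44 below CTR. The dimmest, A_73_P464086, was not well above background on CTR, and was at least 1.03 above it at 2 h. At 8 h, 4 CANX probes outside dark regions were measured on both arrays, 2 above CTR and 2 below. Their changes were between -0.53 and 0.40, with a mean of 0.02 ± 0.43 (SD over 4 probes). The probe A_73_P254571 was not well above background on any array.

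The remaining CANX probe, A_73_P377316, sat in row 277 and column 42 of the array, within rows 216 to 330 and columns 30 to 59, a block that was dark on CTR. It had no more than the shared background value there (-2.51), against levels between 4.17 and 5.84 on the other 7 arrays. Its changes were therefore at least 4.75 to 6.42 (log2), and bright probes around it were 3.31 lower on CTR than on the other arrays. Of the CANX probes outside the block, the highest value or bound was 1.03. A PDIA4 probe, A_73_P106446, lay in the same block at row 285 and column 45, where bright neighbours were 3.69 lower on CTR. Neither probe was used for its gene. The PDIA6 probe in row 225 and column 28 lay just beside the block, and its neighbours on CTR were 0.17 lower than on the other arrays. In total, 4 of the 34 probes lay in a dark region of some array, 2 of them on CTR.

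**Figure D2:**
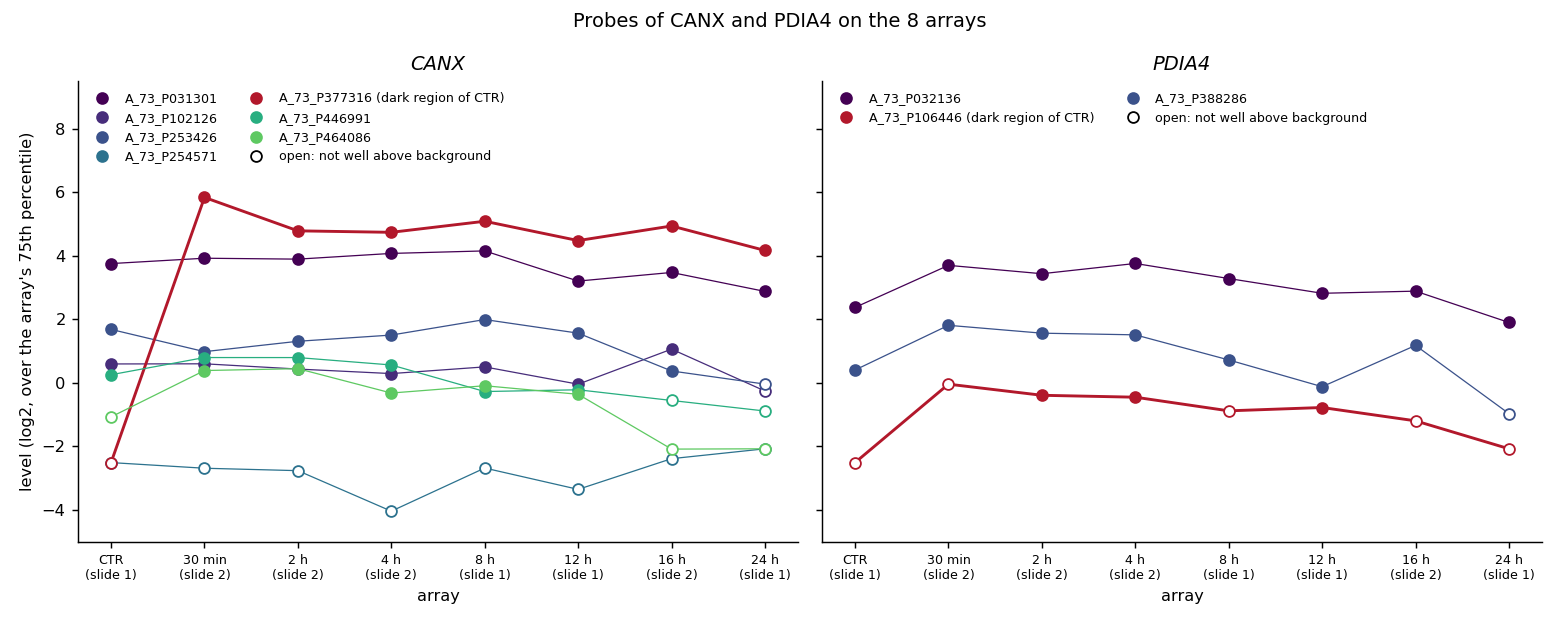
Level of each CANX probe (left) and each PDIA4 probe (right) on the 8 arrays, as log2 over the 75th percentile of the array, with the probe in the dark block of CTR in red and open symbols where a probe was not well above background. The red CANX probe lies at -2.51 on CTR and between 4.17 and 5.84 elsewhere, while the CANX probe at 3.75 on CTR stays between 2.88 and 4.15.

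The protein disulfide isomerases form and rearrange disulfide bonds in folding proteins. PDIA3 (ERp57), which works with the lectin chaperones on glycoproteins, had a single probe, with levels of 3.20 on CTR, and 2.55, 3.17, 4.08, 3.70, 3.16, 3.44 and 2.16 in order from 30 min to 24 h. It was highest at 4 h, by 0.88 ± 0.35 (log2), and 2.07-fold below CTR at 24 h. PDIA4 (ERp72), found in complexes with HSPA5 and HSP90B1, had levels of 2.37 on CTR, and 3.70, 3.43, 3.76, 3.28, 2.82, 2.89 and 1.90 in order from 30 min to 24 h. It was 2.61-fold above CTR at 4 h, and a second probe was also higher there, by 1.11 (log2) against 1.38 for the first. At 8 h the change was 0.91 ± 0.39 for the first probe and 0.32 ± 0.39 for the second. PDIA4 had the smallest change of the 10 genes at 24 h, -0.47 ± 0.39.

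PDIA6 (P5) went against PDIA4 in the first hours. The brightest PDIA6 probe had levels of 7.20 on CTR, and 6.40, 6.48, 6.64, 7.20, 6.66, 6.85 and 6.33 in order from 30 min to 24 h. It was at or below CTR at every time, by 0.80 (log2) at 30 min and 0.87 at 24 h. At 4 h it turned to 0.53 when arrays were scaled by their median and to 0.14 with normexp background correction, and at 8 h, where it stood at CTR, it was 0.17 with median scaling. The overlapping pair printed above had changes at 30 min of -1.01 for A_73_P329651 and -0.39 for A_73_P106326. At 16 h the pair had changes of -1.54 and -1.26, against -0.36 for the brightest probe, with an error of 0.86. At 24 h both probes of the pair were not well above background, and were at least 1.73 and 1.13 below CTR.

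XBP1 is the transcription factor that is made after IRE1 splices its transcript, and it raises folding and degradation genes. The level of its brightest probe was 5.22 on CTR, and 5.61, 5.40, 6.07, 5.41, 4.05, 6.40 and 4.70 in order from 30 min to 24 h. Unlike that of HSPA5, the brightest XBP1 probe was lowest at 12 h, 2.25-fold below CTR, and highest at 16 h, 2.26-fold above. All 3 probes were below CTR at 12 h, with a mean of -1.05 ± 0.11 (SD over 3 probes). At 16 h they disagreed, with changes of 1.18, 0.67 and -0.53 and a spot error of 0.86. At 24 h the changes of the same probes were -0.52, -1.07 and -0.74. A_73_109266 was lowest at 24 h, with -1.07 against -1.04 at 12 h. The arrays where the brightest XBP1 probe was highest, 16 h and 4 h, were those with the highest milk protein sums, and the part of these markers was not tested.

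ATF4, which PERK signalling brings to translation and which raises amino acid synthesis and CHOP, was below CTR at every time on its main probe. At 4 h it turned to 0.55 with median scaling and 0.14 with normexp. The 30 min scanner intensities gave 2.20 at 30 min. That array had lost much of its signal, and its 75th percentile signal was 48.6, against 121 to 423 on the others. The value of 2.20 therefore does not bear on the change of ATF4. Against the mean of the other arrays of its slide ATF4 was not lower at 30 min (0.08), 4 h (0.25), 8 h (0.02) or 16 h (0.05). On slide 2 those other arrays were all heated, and on slide 1 they were CTR and heated arrays. This contrast is therefore not a change from CTR and does not bear on it. The level of ATF4 was 3.54 on CTR, and 2.87, 2.52, 2.99, 2.81, 2.40, 2.85 and 2.43 in order from 30 min to 24 h. The change was -1.13 ± 0.35 (log2) at 12 h and -1.11 ± 0.39 at 24 h. A second probe was also below CTR at all 7 times, by 0.08 to 0.98. The brightest ATF4 probe was in a dark region of the 24 h array and was not used as the main one, and its changes were between -0.20 and -0.08 from 30 min to 4 h, and then -0.55, -1.27 and 0.58 up to 16 h.

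**Figure D3:**
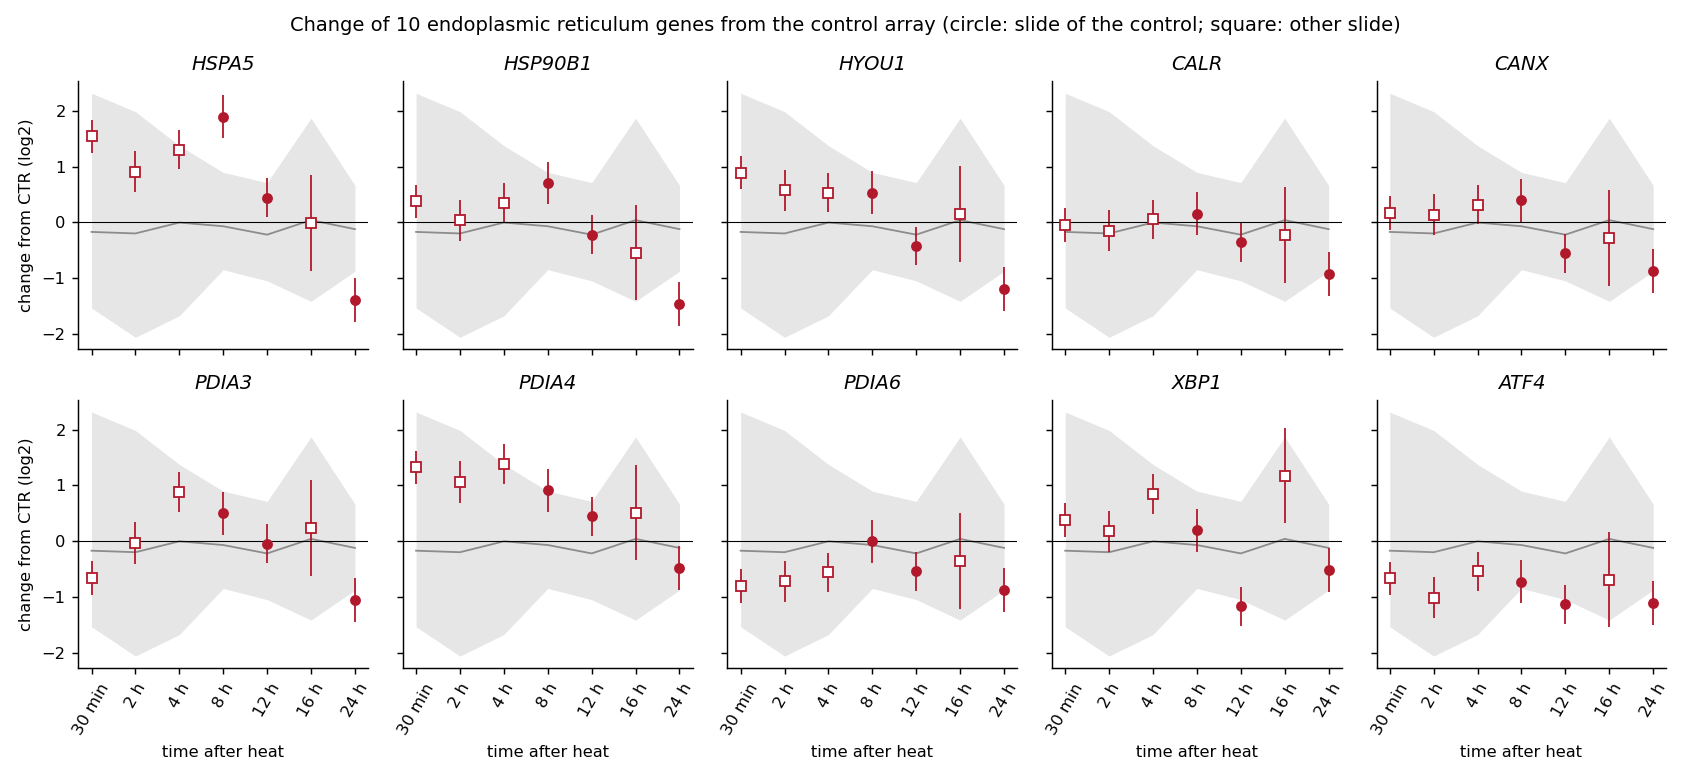
Change from CTR (log2) of each of the 10 genes at 7 times after heat, with bars for the spot error, circles for arrays on the slide of CTR and squares for the other slide. The grey line is the median of all genes and the grey band holds their 5th to 95th percentile. At 24 h all 10 genes lie below CTR, with changes between -1.47 and -0.47.

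Read across the 10 genes, the arrays on the slide of CTR differed from one another. At 8 h, 8 genes were above CTR and 2 below, with a median change of 0.45 (log2), against -0.07 for all 7831 genes with a value, of which 55.0% were below CTR. With the probes of each gene averaged, the dark block left out, the members' median at 8 h was 0.12, against -0.10 for all genes. At 12 h, 2 were above and 8 below, with a median of -0.39 against -0.22 and 65.0% of all genes below, though 5 and not 8 were below CTR with quantile normalization or normexp. At 24 h all 10 were below CTR, each by more than the spot error, with a median of -0.99 against -0.12 for all 6832 genes, of which 62.0% were below CTR. All 10 stayed below CTR under every scaling tried, and 9 did when all probes of a gene were averaged, the dark block included, which turned CANX to 0.41. Counting probes in place of genes, all 20 member probes measured on both arrays were below CTR at 24 h, where 60.4% of all 8728 such probes were. These probes are not separate readings, since 6 belong to CALR and 3 to XBP1, each with an overlapping pair. The count therefore adds nothing to that of the genes. Between 8 h and 24 h all 10 genes were higher at 8 h, with a median difference of 1.33 (log2) against 0.07 for all genes, of which 55.3% were higher at 8 h. The smallest such difference was that of ATF4 (0.38 ± 0.46), which did not exceed its error.

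On slide 2, in order of time, 6, 6, 8 and 4 members were above CTR, and 4, 4, 2 and 6 below, where 59.7%, 57.9%, 50.1% and 48.1% of all genes were below. With median scaling or normexp, 0 were below at 4 h. The median change was 0.27, 0.09, 0.44 and -0.12, against -0.17, -0.20, -0.0023 and 0.04 for all genes. Between 4 h and 16 h, both on slide 2, HSPA5 was 1.31 ± 0.88 (log2) higher at 4 h. Between 2 h and 4 h, 9 of the 10 genes were higher at 4 h, with a median of 2 h minus 4 h of -0.32, against -0.28 for all genes, of which 71.0% were higher at 4 h.

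**Figure D4:**
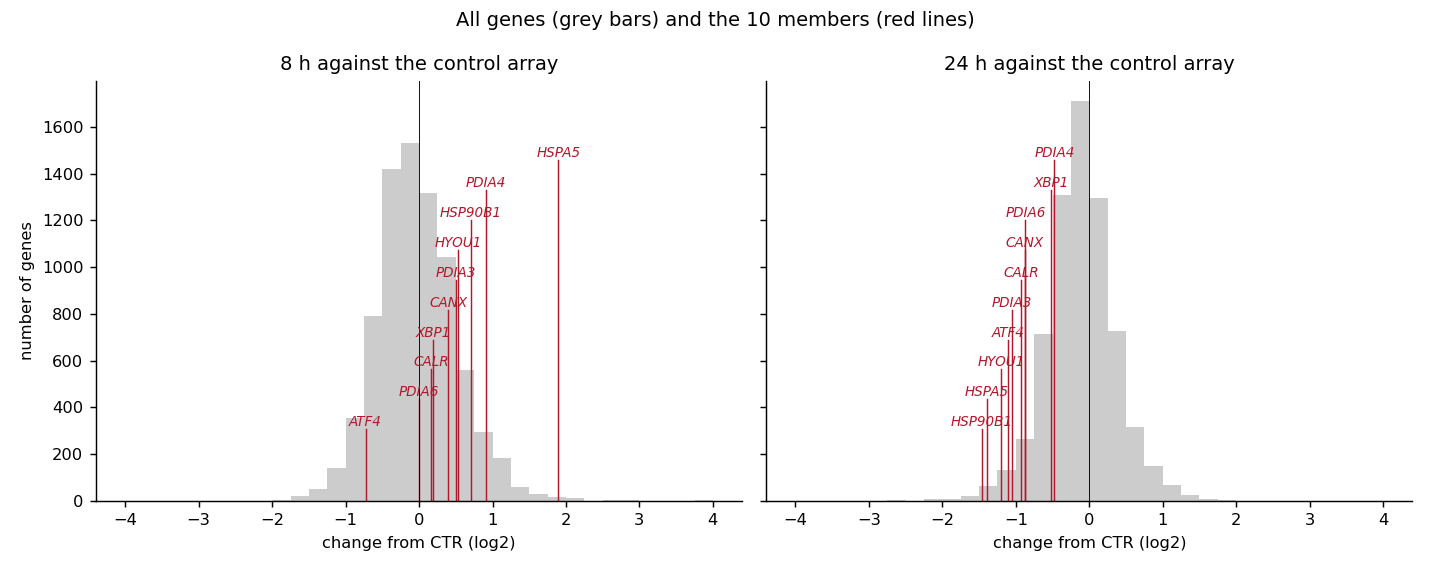
Number of genes (grey bars) by change from CTR (log2, in steps of 0.25) at 8 h and at 24 h, with the 10 members as red lines whose heights only keep the names apart. HSPA5 stands alone at 1.90 at 8 h, and at 24 h the members lie between -1.47 and -0.47.

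Past 3-fold there was 1 member at any time, HSPA5 at 8 h, where 0.702% of all genes were 3-fold higher and 0.166% 3-fold lower. With the 4 HSPA5 probes averaged it was 1.52 (log2) and 0 members passed 3-fold at 8 h. At the other times no member passed 3-fold in either direction. With median scaling, 2 and 5 were higher at 2 h and 4 h and 3 lower at 24 h. That scaling moved the median of all genes to 0.46 (2 h), 0.94 (4 h) and -0.52 (24 h). With normexp, 2 members were higher at 2 h and at 4 h, where the median of all genes was 0.24 and 0.37. The 3-fold shares of all genes given here are for the 75th percentile scaling and do not apply to these counts. Of all genes, 0.277% were 3-fold higher and 0.503% lower at 12 h, and 0.161% and 0.439% at 24 h. On slide 2 these shares were larger, with 8.41% higher and 4.62% lower at 30 min, 6.8% higher and 9.31% lower at 2 h, 3.61% higher and 6.06% lower at 4 h, and 6.64% higher and 3.61% lower at 16 h. At 2-fold, 5 members were lower at 24 h (HSP90B1, HSPA5, HYOU1, ATF4 and PDIA3), where 3.45% of all genes were. This count was 8 with median scaling (13.5% of all genes), 4 with quantile normalization (2.86%) or the percentile over bright probes (2.49%), and 3 with normexp (1.78%). At 12 h, 2 were 2-fold lower (XBP1 and ATF4), beside 6.19% of all genes. This count was 1 with quantile normalization (5.22%) and 0 with median scaling (2.23%), the percentile over bright probes (2.50%) or normexp (0.547%). At 8 h, 1 was 2-fold higher (HSPA5), beside 3.87%. On slide 2, 2 members were 2-fold higher at 30 min (HSPA5 and PDIA4) beside 14.5% of all genes, 1 at 2 h (PDIA4) beside 11.8%, 2 at 4 h (PDIA4 and HSPA5) beside 9.42%, and 1 at 16 h (XBP1) beside 15.2%. At 2 h, 1 was 2-fold lower (ATF4), beside 19.6% of all genes.

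The probes whose levels ran most like the HSPA5 probe over the 7 arrays other than 30 min, of 6847 bright probes with a gene symbol, belonged to HSP90AB1 (Pearson's r 0.97), TIMM13 (0.97), PFDN5 (0.96), HSP90AA1 (0.96) and HSP90B1 (0.96). These correlations describe 7 arrays from 2 slides, with a 75th percentile signal between 121 and 423, and carry no test. The part of slide and signal in them was not tested. HSP90AB1 and HSP90AA1 code for the Hsp90 chaperones of the cytosol, and PFDN5 for a subunit of prefoldin, a cytosolic chaperone. The HSP90AB1 probe, A_73_P103306, had changes of 1.56 at 8 h and -0.90 at 24 h, and the HSP90AA1 probe, A_73_P103241, of 1.68 and -2.25. A brighter probe of HSP90AA1 had changes of 0.90 and -0.65, and that one stands for the gene in the heat shock list. Among the members' main probes r with HSPA5 was 0.87 to 0.88 for HYOU1, CALR, CANX and PDIA4, 0.85 for PDIA3, 0.44 for PDIA6, 0.30 for XBP1 and 0.15 for ATF4.

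Cytosolic and mitochondrial heat shock genes were, like HSPA5, mostly above CTR at 8 h and below it at 24 h. At 8 h all 12 genes of this list were above CTR, with a median of 1.94 (log2), where 55.0% of all genes were below CTR. Of the 12, 7 were past 3-fold higher, beside 0.702% of all genes. HSPA1A, the inducible Hsp70, had a change of 4.56 at 8 h and of -1.42 at 24 h. At 24 h, 9 of the 10 with a value were below CTR, beside 62.0% of all genes, and HSPB1 was above it by 0.94. None was past 3-fold, where 0.161% of all genes were 3-fold higher and 0.439% lower. The median was -0.65, against -0.99 for the ER members.

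The other genes of the unfolded protein response were taken from a list of 90, of which 86 are on the array and 63 to 66 had a value at a given time. In order of time, 6, 7, 2, 1, 0, 1 and 0 of them were past 3-fold higher, beside 8.41%, 6.8%, 3.61%, 0.702%, 0.277%, 6.64% and 0.161% of all genes. Past 3-fold lower there were 2 at 4 h and 1 at 24 h, with 0 at the other times, beside 6.06% and 0.439% of all genes at those 2 times. At 24 h, 51 of 63 were below CTR and 12 above, with a median of -0.32 (log2) against -0.12 for all genes, of which 62.0% were below. At 12 h, 47 of 66 were below CTR, beside 65.0% of all genes, with a median of -0.37 against -0.22.

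Among the sensors and their direct partners, with 7 genes on the array and 5 or 6 with a value, the gene past 3-fold was EIF2S1, the translation factor that PERK phosphorylates, at least 1.74 below CTR at 4 h. Its probe was well above background on 4 of the 7 arrays other than 30 min, CTR among them. The 4 measured changes, 30 min included, were between 0.17 and 0.78. At 16 h it was at least 0.30 below CTR, and at 24 h it was not well above background and allowed no fold. Among 28 genes of folding and transport, 22 of 23 with a value were below CTR at 24 h, beside 62.0% of all genes, with a median of -0.37. CRELD2, an ER stress target, was 1.25 above CTR at 30 min and 1.24 at 4 h, and at 24 h it was not well above background and at least 1.72 below. MANF, a secreted factor that binds HSPA5, had a change of -1.43 at 24 h, and its second bright probe gave -1.44. The change of -3.34 that the main MANF probe gave at 4 h was not seen on that second probe (0.01).

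Among 18 degradation genes, SYVN1 (HRD1), the ubiquitin ligase of the ER membrane, was 1.71, 1.74 and 1.72 above CTR on the first 3 arrays after heat and 1.19 above it at 8 h. The median of that list was between -0.38 and 0.28 over the 7 times. SEC61A1, the channel of the translocon, had changes of 2.50 at 30 min, 2.29 at 2 h and 0.51 at 8 h, and the other translocon genes did not pass 3-fold at any time.

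The ATF4 and CHOP arm, with 16 genes outside dark regions and 10 or 11 with a value, had the highest medians of the 5 lists from 30 min to 12 h, which in order were 1.28, 1.23, 0.45, 0.62 and 0.37 (log2). ATF3, a stress transcription factor, had changes of 3.36, 3.09, 0.87, 1.81 and 1.38 over the same times, and was the gene of the list past 3-fold on slide 1. DDIT3 (CHOP), a pro-apoptotic factor, was not well above background on CTR, and it was at least 1.98 above it at 30 min and at least 1.68 at 2 h. VEGFA, a vessel growth factor, was 1.74 above CTR at 30 min and at 2 h and -0.17 at 4 h. DDIT4, which restrains mTOR, was 1.40 above CTR at 30 min, 2.00 at 2 h and 1.06 at 8 h. PSAT1, an enzyme of serine synthesis, was 2.47 (30 min), 1.95 (2 h), 2.58 (4 h) and 2.19 (16 h) above CTR on slide 2, and 0.90 at 8 h. At 30 min and at 2 h, 9 of the 11 list genes with a value were above CTR. The 2 below were ASNS (-0.46 and -0.45) and CEBPB (at least 0.65 below, then -1.25). TRIB3, CHAC1 and SLC7A11 were not well above background on any array. Past 3-fold higher were 4 list genes at 30 min and 5 at 2 h, beside 8.41% and 6.8% of all genes. At 4, 8 and 16 h it was 1 gene each, beside 3.61%, 0.702% and 6.64%. The high values of ATF3, DDIT3, VEGFA and SEC61A1, and the highest medians of the ATF4 and CHOP list, were on the arrays with the highest leukocyte sums, and those of PSAT1 on the 4 arrays of slide 2. ATF3 was also 1.81 and 1.38 above CTR at 8 h and 12 h, where the leukocyte sums were 4.16 and 4.63, against 5.90 on CTR. The median of the list at 8 h (0.62) was above those at 4 h (0.45) and 16 h (0.19), where these sums were 12.6 and 19.1. The part of leukocyte, endothelial, fibroblast or milk gene expression in these values was not tested.

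**Figure D5:**
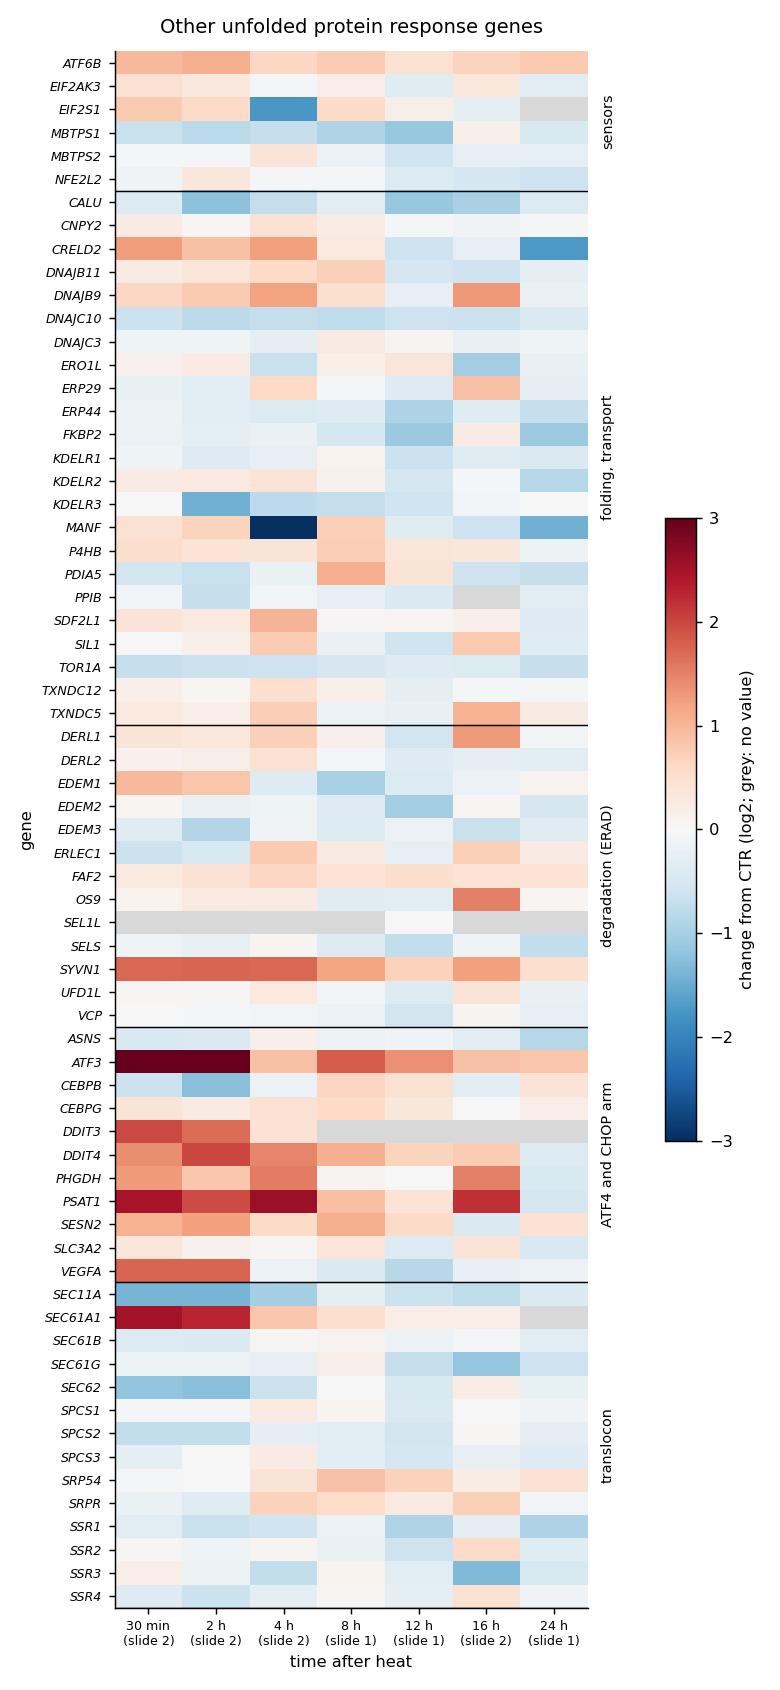
Change from CTR (log2, colour from -3 in blue to 3 in red) of the genes of 5 unfolded protein response lists at 7 times after heat, with grey where a gene had no value. ATF3, DDIT3, VEGFA and SEC61A1 are red at 30 min and 2 h, PSAT1 is red on the 4 arrays of slide 2, and most rows of the folding list are blue at 24 h.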

How the data were processed

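The slides were scanned by the authors with a GenePix-4000B, and the deposited intensity of each spot was made by them with Feature Extraction 9.5.3.1, with spatial trends removed and no scaling between arrays. The authors also deposited log2 values made in GeneSpring GX (75th percentile shift, median of each probe set to 0). These were used at 30 min, as CTR level plus the deposited difference, and as an alternative elsewhere. Mean and background intensities, also deposited, served 1 alternative.

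Processed intensities were taken to log2, outlier-marked spots left out, the 75th percentile over non-control probes subtracted and spots of a probe averaged (Python 3.11.15, pandas 2.3.3, numpy 2.4.6). A position was dark where the median difference of bright probes within 10 spots from the other arrays was -1 (log2) or lower. The gene value was its brightest probe outside dark regions. A dim probe was bounded by the lowest signal well above background, and medians and counts took a bound at its value. Probes well above background made up 23.2% to 40.2% of an array, 30 min aside. The computation was tested on simulated data. Alternatives were other scalings, quantile normalization, normexp with offset 50 (limma 3.58.1, R 4.3.3), other probe summaries, no bounds, 2-fold, the 30 min scanner intensities and slide means. The members and lists were chosen with earlier results of these data known. Named were the 10 members at every probe, list genes past 3-fold at 1 time or more, and the 5 probes most like HSPA5. For the ATF4 and CHOP list, genes below CTR at 30 min and 2 h and genes dim on every array were named as well.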

Additional observations from a re-analysis of the deposited data

How the results depend on the processing

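The members' median change at 24 h was negative under the 9 alternatives that gave one. HSPA5 at 8 h lay between 1.52 and 2.07 (log2), and at 24 h between -1.83 and -1.26, over 8 of them. All values rest on 1 array per condition and on bovine probes read with buffalo RNA. Of 640 recomputed changes of single genes, 27 changed sign beyond the spot error. The slide means gave 8 of 70, the mean over all probes 6 of 70 and the 30 min scanner intensities 3 of 10. A slide mean is not a change from CTR. Without the slide means and the 30 min scanner intensities, 16 of 560 changed sign. The cause was not tested. With probes averaged, HYOU1 changed sign at 2 h (-1.15), 4 h (-1.10) and 8 h (-0.15), PDIA4 at 12 h (-0.04), and, with the dark block included, CANX at 12 h (0.58) and 24 h (0.41). No paired analysis was possible because each group has 1 array.

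With the median of an array in place of the 75th percentile, the members had a median of 0.79 (2 h), 1.53 (4 h) and -1.42 (24 h). This scaling moved the median of all genes as well, to 0.46 (2 h), 0.94 (4 h) and -0.52 (24 h). Relative to all genes the members lay at 0.60 in place of 0.44 at 4 h, and at -0.91 in place of -0.87 at 24 h. Members past 3-fold were then 2 and 5 higher at 2 h and 4 h, and 3 lower at 24 h, and pathway genes 19 higher and 1 lower at 4 h, 1 higher at 12 h and 2 lower at 24 h. With normexp these medians were 0.74 (2 h), 1.11 (4 h) and 0.0563 (12 h, in place of -0.39). Members past 3-fold were 2 higher both at 2 h and at 4 h, and pathway genes 5 higher and 1 lower at 4 h, 0 higher at 8 h and 0 lower at 24 h. The 3-fold shares of all genes given above do not apply to the counts with median scaling or normexp. Quantile normalization gave a members' median of -0.0241 at 12 h, and 1 pathway gene 3-fold higher at 4 h. Set against the mean of the other arrays of its slide, which is not a change from CTR, the members' median at 8 h was 0.87.

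The 30 min scanner intensities gave a members' median of -3.28, with 4 members 3-fold higher and 6 lower, and 30 pathway genes higher and 20 lower. They come from the array that had lost much of its signal. Over bright probes their changes had r 0.165 with the deposited ones, so these counts do not bear on the 30 min results. Averaging the probes of a gene, with or without the dark block of CTR, left 0 members past 3-fold at 8 h and 1 pathway gene lower at 2 h. With the block included, 4 pathway genes were higher at 4 h and 4 at 8 h, and 2 on each later array. Without bounds, and also with the deposited log2 values, 4 pathway genes were higher at 4 h and 1 at 12 h, while 1 was lower at 30 min, 2 at 16 h and 3 on the last array.

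At 2-fold, 2 members were higher at 30 min and 4 h and 1 at 2 h and 16 h, while 1, 2 and 5 were lower at 2, 12 and 24 h. Of the 63 to 66 pathway genes with a value, 10, 9, 7, 5, 1 and 7 were 2-fold higher at 30 min and 2, 4, 8, 12 and 16 h. Of all genes, 14.5%, 11.8%, 9.42%, 3.87% and 15.2% were 2-fold higher at 30 min and 2, 4, 8 and 16 h. Pathway genes 2-fold lower numbered 2, 5, 3, 4, 3 and 3 at 30 min and 2, 4, 12, 16 and 24 h. The shares of all genes 2-fold lower at those times were 13.9%, 19.6%, 13.2%, 6.19%, 10.9% and 3.45%.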
